A study of Mus musculus with 12 samples.

Results

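In the thyroids of mice with thyroid dysplasia, 74 genes differed in transcript length from the thyroids of unaffected mice, 48 of them shorter and 26 longer. They were selected on that difference. The length used is the one implied by the deposited tables. FPKM (fragments per kilobase of transcript, scaled to library size) divides a gene's estimated count by its transcript length and by the library total, so that the 2 tables together give the length back for each gene and mouse. A gene was eligible if it had more than 1 transcript and its count reached 100 throughout the 12 mice. It was kept where the values of the 5 affected mice were all above or all below those of the 7 unaffected mice and the group means differed by at least 5%, and *Tg* and genes named Rpl or Rps were set aside. The 74 genes are 0.822% of the 8997 eligible genes, with 0.289% longer and 0.534% shorter, out of 55536 genes in the tables. The same values chose the genes and describe them, so no test of the length difference is given.

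Each library came from the thyroid of 1 mouse. The affected mice were C57BL/6NTac mice from Taconic (library code TCW) with the dysplasia phenotype, which the study traces to a LINE-1 element in an intron of *Tg*, the gene of thyroglobulin. The unaffected mice were 6 C57BL/6NCrl mice from Charles River (CRW) and 1 knockout mouse from Taconic (TCK), whose deleted gene is not given in the sources used here. The age, the sex and the number of LINE-1 copies of these 12 mice are not given there either. Except for the TCK mouse, the substrain and vendor cannot be told apart from the phenotype. Total counts were 18103710 to 23319948 in 11 mice and 11434901 in the TCK mouse, and no pair of libraries was as alike as counting noise alone would make them. In CPM, the usual unit of counts scaled to library size, *Tg* was at 100510 or more in each mouse.

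Most mammalian genes give several transcripts, by alternative start sites, splicing and sites of cleavage and polyadenylation. Transcripts that end at a distal polyadenylation site carry a longer 3′ untranslated region (UTR), and those that keep an intron often have no full reading frame. Proteins made from such transcripts may be the same or may differ at one end, as in the chemokine gene *Cxcl12* and the growth factor gene *Igf1*. The implied length is the mean of the annotated transcript lengths of a gene, weighted by the number of molecules the authors' software assigned to each. In 3690 genes with a single transcript and 10 or more counts in all mice, it equalled the annotated length within 0.1%. In 9083 of 9084 eligible genes, with *Tg* and the ribosomal genes included, the transcript number matched GENCODE M21, and the implied length lay between the shortest and the longest transcript in every mouse. It does not show which transcript of several was gained or lost.

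The coding ends of 3 of the genes are shown because the long and short transcripts printed here part before the stop codon, so that their protein ends differ. Not all transcripts of *Cxcl12* and *Igf1* are printed. In these genes a difference in implied length does not show a change of protein end. Sequences are from GENCODE M21 (GRCm38), 5′ to 3′ on the coding strand. Lower case marks the last 24 coding bases that the printed transcripts of a gene share, and capitals mark the bases after them, to the end of the stop codon. *Cxcl12* (chromosome 6, plus strand) has a transcript of 5627 bases, Cxcl12-201, whose own coding bases lie at chr6:117176086-117176179. The own bases of Cxcl12-203, of 3132 bases, lie at chr6:117178583-117178598, and those of Cxcl12-202, of 1878 bases, at chr6:117173579-117173582, where the third exon runs on into the intron.
Cxcl12-201: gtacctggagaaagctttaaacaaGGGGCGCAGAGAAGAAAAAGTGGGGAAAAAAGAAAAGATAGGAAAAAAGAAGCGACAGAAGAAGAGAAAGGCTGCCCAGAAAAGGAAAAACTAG
Cxcl12-203: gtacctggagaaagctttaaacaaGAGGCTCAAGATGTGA
Cxcl12-202: gtacctggagaaagctttaaacaaGTAA

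For *Igf1* (chromosome 10, plus strand), the long transcript Igf1-202, of 7052 bases, ends its reading frame at chr10:87930675-87930734 and carries a 3′ UTR of 6311 bases. Transcript Igf1-201, of 2292 bases, ends it in an earlier exon at chr10:87915298-87915441, with a 3′ UTR of 456 bases.
Igf1-202: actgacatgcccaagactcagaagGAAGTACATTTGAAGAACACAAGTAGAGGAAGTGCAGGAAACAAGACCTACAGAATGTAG
Igf1-201: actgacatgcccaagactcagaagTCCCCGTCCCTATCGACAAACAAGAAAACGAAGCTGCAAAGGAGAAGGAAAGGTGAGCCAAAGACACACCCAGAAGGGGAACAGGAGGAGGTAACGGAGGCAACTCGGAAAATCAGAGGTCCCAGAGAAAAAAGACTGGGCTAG

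For *Bloc1s5* (chromosome 13, minus strand), the transcripts have 5634 (Bloc1s5-201), 1020 (Bloc1s5-202) and 612 bases (Bloc1s5-203), and their own coding bases lie at chr13:38603849-38604028, chr13:38593361-38593432 and chr13:38611916-38612047.
Bloc1s5-201: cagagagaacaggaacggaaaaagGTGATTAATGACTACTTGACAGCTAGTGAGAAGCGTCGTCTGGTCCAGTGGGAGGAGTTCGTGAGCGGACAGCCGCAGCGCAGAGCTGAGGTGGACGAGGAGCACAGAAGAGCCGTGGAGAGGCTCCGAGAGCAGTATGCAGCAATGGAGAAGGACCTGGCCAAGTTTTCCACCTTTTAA
Bloc1s5-202: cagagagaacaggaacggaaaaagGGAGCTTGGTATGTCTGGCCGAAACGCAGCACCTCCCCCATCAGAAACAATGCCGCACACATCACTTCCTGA
Bloc1s5-203: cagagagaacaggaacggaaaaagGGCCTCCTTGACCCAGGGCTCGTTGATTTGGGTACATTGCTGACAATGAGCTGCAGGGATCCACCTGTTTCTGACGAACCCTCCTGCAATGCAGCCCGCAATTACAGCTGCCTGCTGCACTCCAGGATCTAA

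The genes are taken below by the role of their product. The roles were given by hand to all 74 genes, in 9 groups, after their values had been seen, and they serve to order the genes only. A size in percent is the difference of the mean implied length in 5 affected mice from that in 7 unaffected mice. A log2 fold change is of the whole gene's expression in affected against unaffected mice, with its standard error (SE) from edgeR. Expression was compared between the same groups that chose the genes. Of 19661 genes tested across the transcriptome, 13.7% passed the threshold (adjusted p under 0.05), 7.63% higher and 6.10% lower in affected mice. Of the 74 genes, 18 passed it, 7 higher and 11 lower. Values in bulk tissue do not tell fewer cells of a type from less RNA per cell.

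**Figure D1:**
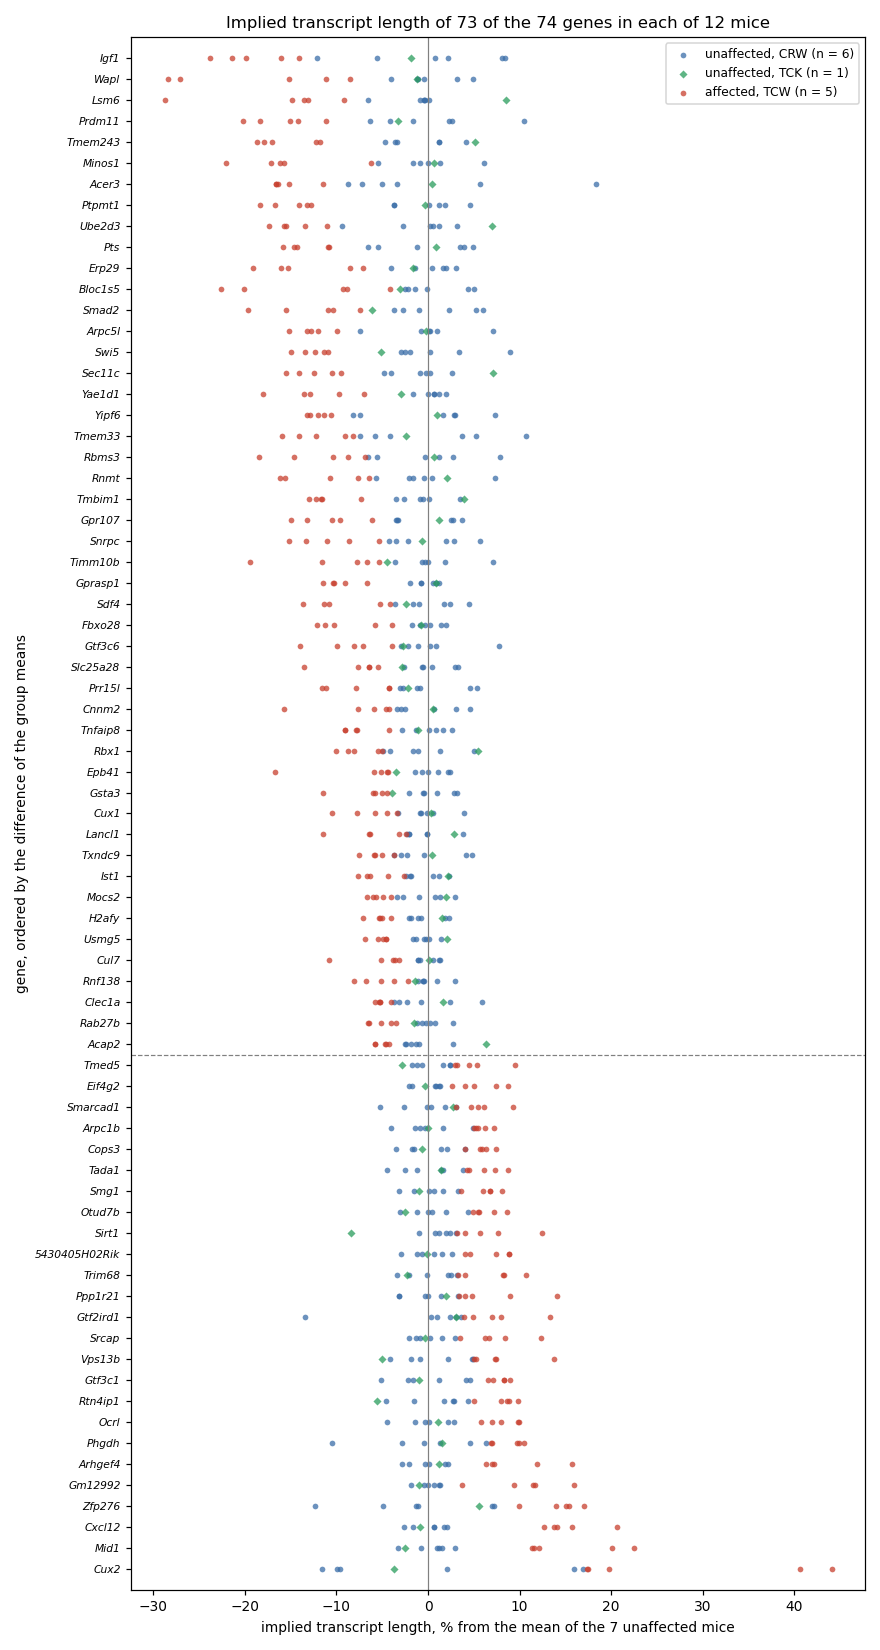
Implied transcript length of 73 of the 74 genes (rows) in each of 12 mice (points), as the percent difference from the mean of the 7 unaffected mice. The dashed line parts the 48 genes that were shorter in affected mice from the 25 plotted genes that were longer; the gap between the groups ranges from 0.0272% to 10.7% of the unaffected mean.

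Secreted signals and their relay made up 8 genes, 6 shorter and 2 longer. *Igf1* (chr10:87858265-87937042), insulin-like growth factor 1, which promotes growth and with thyroid stimulating hormone drives the growth of thyrocytes, had the largest decrease of the 74. Its implied length was 4227, 4095, 4308, 4513 and 4618 bases in the affected mice. The lowest, median and highest of the unaffected mice were 4722, 5418 and 5832 bases. No affected mouse reached the lowest unaffected one, with means of 4352 ± 212 (SD, n = 5) and 5377 ± 396 bases (SD, n = 7), 19.1% shorter. Its 8 annotated transcripts hold 1 long one, Igf1-202, and 7 of at most 2292 bases, so the mean length sets limits on the share of Igf1-202. By the group means, that share was 43.3% to 58.7% of *Igf1* molecules in affected mice and 64.8% to 74.4% in unaffected mice. These limits hold whatever the mix of the 7 others. Over single mice they widened to 37.9% to 62.8% and 51.1% to 81.3%, which overlap. Expression of *Igf1* as a whole differed by -0.16 ± 0.12 on the log2 scale and did not pass the threshold.

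*Cxcl12* (chr6:117168535-117181367), a chemokine that stromal cells make and that draws leukocytes through CXCR4, moved the other way. Affected mice had implied lengths of 3103, 3150, 3067, 3094 and 3283 bases, and unaffected mice 2650, 2738 and 2777 bases at the lowest, the median and the highest. The gap between the groups, 10.7% of the unaffected mean, was the widest of the 74 genes. The means were 3139 ± 85.5 (SD, n = 5) and 2721 ± 47.5 bases (SD, n = 7), 15.4% longer. By the group means, at least 11.2% of *Cxcl12* molecules must have been of another transcript in affected than in unaffected mice. The 4 transcripts do not let the length name it. By the same means, Cxcl12-201 could hold 0.298% to 33.6% of molecules in affected mice and up to 22.5% in unaffected mice. Total *Cxcl12* was lower in affected mice, 55.9 to 104 CPM against 94.8 to 150 CPM, with a log2 fold change of -0.70 ± 0.17 (SE). The CPM ranges of the groups overlapped.

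The 6 other genes of this group are relays and receptors. *Smad2*, which carries TGF-β signals to the nucleus, was 12.8% shorter, *Gpr107*, a Golgi membrane protein, 10.9%, and *Gprasp1*, which sorts G protein-coupled receptors to lysosomes, 9.59%. *Tnfaip8*, a regulator of apoptosis, was 7.59% shorter, and *Clec1a*, a C-type lectin receptor of endothelial and myeloid cells, 5.13%. *Arhgef4*, an exchange factor that activates small GTPases, was 9.64% longer, with 5006, 5269, 5445, 5045 and 5034 bases in affected mice against at most 4807 bases in unaffected mice. Its coding transcript Arhgef4-204, of 6514 bases, is the longest of 7. *Arhgef4* expression was higher in affected mice (log2 0.95 ± 0.22), and that of *Gprasp1* (-0.57 ± 0.08) and *Tnfaip8* (-0.55 ± 0.14) was lower.

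**Figure D2:**
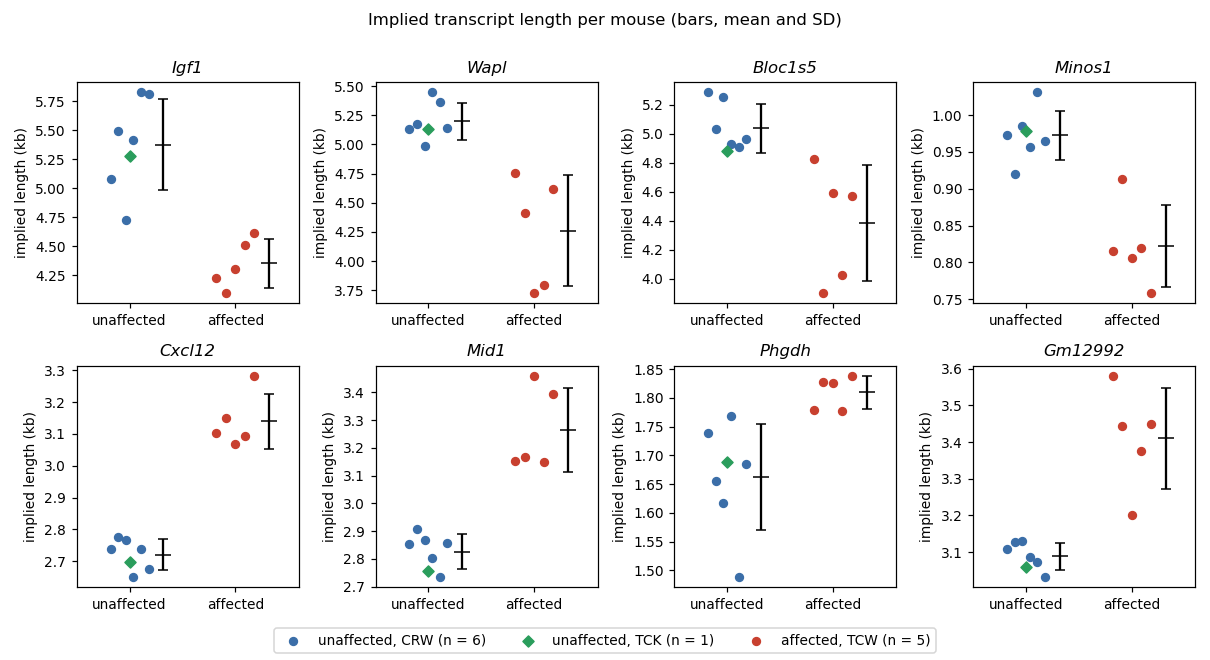
Implied transcript length in kilobases for 8 of the genes, with 1 point per mouse and the mean and SD of each group beside it. The 4 genes in the top row were shorter and the 4 in the bottom row longer in all 5 affected mice than in any unaffected mouse, and the diamond is the TCK mouse, which lay below the 6 CRW mice in Bloc1s5 and within their range in the others.

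The endoplasmic reticulum and Golgi group held 7 genes, 6 shorter and 1 longer. *Erp29* (chr5:121428590-121452506), a chaperone of the endoplasmic reticulum known to bind thyroglobulin, had implied lengths of 1516, 1391, 1340, 1404 and 1539 bases in affected mice. Unaffected mice had 1590, 1663 and 1708 bases at the lowest, the median and the highest. It was 13.2% shorter, and its expression was higher, 44.5 to 64.7 CPM against 34.8 to 39.4 CPM (log2 0.59 ± 0.09). The longest of its 4 transcripts, Erp29-203, has 5204 bases, of which 4252 are 3′ UTR, and Erp29-201 has 1123 bases. *Acer3*, a ceramidase, was 15.2% shorter, *Sec11c*, a catalytic subunit of the signal peptidase, 12.4%, *Yipf6*, a Golgi membrane protein, 11.99%, *Tmem33*, an endoplasmic reticulum membrane protein, 11.9%, and *Sdf4*, a calcium-binding protein of the Golgi lumen, 9.03%. *Tmed5*, a cargo receptor of the early secretory pathway, was 5.09% longer. Expression was higher in affected mice for *Tmed5* (log2 0.76 ± 0.16) and *Sdf4* (0.37 ± 0.08), and did not pass the threshold for *Sec11c* (0.35 ± 0.17).

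The longest *Acer3* transcript, Acer3-201, has 11340 bases, of which 10451 are 3′ UTR. Its implied length was 4622, 4554, 4823, 4545 and 4544 bases in affected mice and 4972, 5261 and 6446 bases at the lowest, the median and the highest of the unaffected mice. The affected mice lay close together and the unaffected mice were spread widely, with SDs of 119 and 513 bases.

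Membrane traffic and the cytoskeleton held 11 genes, 7 shorter and 4 longer. *Bloc1s5* (chr13:38592842-38635109) encodes a subunit of the BLOC-1 complex, which sorts cargo to lysosome-related organelles. It has 3 transcripts, and its implied length was 4830, 3901, 4596, 4028 and 4569 bases in affected mice. The unaffected mice had 4883, 4965 and 5290 bases at the lowest, the median and the highest, so the groups were parted by 53.1 bases. It was 13.0% shorter. Transcript Bloc1s5-201, whose coding end is printed above, made up 72.9% to 75.1% of molecules in affected mice and 87.1% to 88.2% in unaffected mice by their mean lengths. The lowest count of *Bloc1s5* in a mouse was 145.

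*Tmbim1*, a membrane protein of endosomes and lysosomes, was 11.2% shorter, and *Arpc5l*, a subunit of the Arp2/3 complex that nucleates branched actin, 12.6%. *Epb41*, which ties spectrin and actin to the membrane, was 7.33% shorter, *Ist1*, of the ESCRT machinery, 5.52%, *Rab27b*, a small GTPase of secretory granules, 5.11%, and *Acap2*, which turns off Arf6, 5.04%. *Ocrl*, an inositol phosphatase of the Golgi and endosomes, was 8.09% longer, *Vps13b*, a lipid transfer protein of the Golgi, 7.74%, *Ppp1r21*, of endosomal sorting, 7.05%, and *Arpc1b*, another subunit of the Arp2/3 complex, 5.84%. The pair of Arp2/3 subunits thus moved in opposite directions in length, while expression of both was higher in affected mice, by 0.44 ± 0.06 for *Arpc5l* and 0.46 ± 0.13 for *Arpc1b* on the log2 scale.

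The ubiquitin group held 9 genes, 5 shorter and 4 longer. *Ube2d3*, an abundant ubiquitin-conjugating enzyme, was 14.6% shorter, at 2794, 2652, 2595, 2720 and 2648 bases in affected mice and 2846, 3159 and 3361 bases at the lowest, the median and the highest of the unaffected mice. It has 16 transcripts and was counted deeply, with at least 3738 counts in each mouse. *Fbxo28*, a substrate receptor of SCF ligases, was 8.67% shorter, *Rbx1*, the RING subunit of cullin ligases, 7.5%, *Cul7*, a cullin, 5.28%, and *Rnf138*, a ligase of DNA repair, 5.19%. *Trim68*, a RING ligase, was 6.92% longer, *Otud7b*, a deubiquitinase, 6.35%, and *Cops3*, of the COP9 signalosome that removes NEDD8 from cullins, 5.89%. Expression passed the threshold in *Cul7* alone among the 9 (-0.26 ± 0.06).

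*Mid1* (chrX:169685199-170005736), a microtubule-bound ubiquitin ligase, was 15.5% longer. Implied lengths were 3153, 3168, 3461, 3147 and 3394 bases in affected mice, and 2734, 2853 and 2908 bases at the lowest, the median and the highest of the unaffected mice, a gap of 8.48%. In this species the 3′ part of the gene lies in the pseudoautosomal region of the sex chromosomes. *Xist*, the RNA of the inactive X chromosome, was at 11.2 and 19.4 CPM in affected mice 6 and 4, which had the highest *Mid1* lengths, and at 1559 to 1918 CPM in the other 3. Among unaffected mice, the 4 with *Xist* at 17.6 to 18.5 CPM had *Mid1* lengths of 2755, 2804, 2858 and 2908 bases, and the 3 with *Xist* at 1686 to 2088 CPM had 2734, 2853 and 2868 bases. Both *Xist* levels were present in both groups, and their part in the *Mid1* lengths was not tested. Expression of *Mid1* differed by 0.40 ± 0.22 on the log2 scale and did not pass the threshold, but did so without the TCK mouse (0.59).

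Transcription, chromatin and chromosomes made up the largest group, 14 genes, of which 6 were shorter and 8 longer. *Cux2* (chr5:121856366-122050102), a homeodomain transcription factor, had the largest increase of the 74, 27.8%. Its implied length was 7593, 6341, 6336, 6465 and 7781 bases in affected mice and 4776, 5197 and 6313 bases at the lowest, the median and the highest of the unaffected mice. The groups were parted by only 0.417% of the unaffected mean, and spread was wide, with SDs of 721 and 655 bases. The lowest count of *Cux2* in a mouse was 145. Affected mice 1 and 6, at 7593 and 7781 bases, had the longest lengths and the lowest *Cux2* expression of all mice. The other affected mice, at 6336 to 6465 bases, lay just above the highest unaffected mouse. The size of the increase thus rests largely on affected mice 1 and 6. By the group means, at least 17.8% of the estimated *Cux2* molecules must have been of another transcript. Transcripts Cux2-202, Cux2-201 and Cux2-210 share a coding length of 4278 bases and have 8784, 5113 and 4697 bases in all, with 3′ UTRs of 4232, 382 and 290 bases. Expression was lower in affected mice, at 7.48 to 12.5 CPM against 17.4 to 23.0 CPM (log2 -1.07 ± 0.13). *Cux1*, its paralog, was 6.36% shorter and also lower in expression (-0.45 ± 0.09).

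*Wapl* (chr14:34673928-34747983) releases cohesin from chromosomes. Its implied length was 4757, 4411, 3724, 3792 and 4619 bases in affected mice and 4988, 5139 and 5451 bases at the lowest, the median and the highest of the unaffected mice. It was 18.02% shorter and did not overlap between the groups. Affected mice 4 and 5 lay furthest from the unaffected range, and the SD was 476 bases in affected and 157 bases in unaffected mice. Transcripts Wapl-201 and Wapl-205 share a coding length of 3600 bases, with 3′ UTRs of 2296 and 205 bases. Total *Wapl* differed by 0.03 ± 0.06 on the log2 scale.

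*Prdm11*, a chromatin regulator with a PR domain, was 15.8% shorter, at 4649 to 5181 bases against 5460 to 6440 bases, and its expression was lower (-0.88 ± 0.13). Its longest transcript, Prdm11-202, has a 3′ UTR of 9758 bases. *Swi5*, of homologous recombination, was 12.6% shorter, *Gtf3c6*, a subunit of transcription factor TFIIIC, 8.59%, and *H2afy*, the histone variant macroH2A1, 5.35%. *Zfp276*, a zinc finger protein, was 14.3% longer, at 3081 to 3279 bases against 2454 to 3002 bases. *Gtf3c1*, the largest subunit of TFIIIC, was 7.84% longer, so that this complex too had members on both sides. *Srcap*, the catalytic subunit of a complex that deposits H2A.Z, was 7.43% longer, *Gtf2ird1*, a TFII-I family factor, 7.40%, *Sirt1*, a deacetylase, 6.62%, *Tada1*, of the SAGA complex, 6.19%, and *Smarcad1*, a chromatin remodeler, 5.73%.

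RNA processing and translation held 6 genes, 4 shorter and 2 longer. *Lsm6* (chr8:78804865-78821140), of the LSm rings that bind U6 snRNA and mRNA ends, was 15.9% shorter. Implied lengths were 1454, 1385, 1141, 1363 and 1392 bases in affected mice and 1497, 1595 and 1739 bases at the lowest, the median and the highest of the unaffected mice. The highest value was that of the TCK mouse, and the CRW mice lay between 1497 and 1603 bases. The lowest count of *Lsm6* in a mouse was 116. Its 3 coding transcripts share a coding length of 240 bases and differ in their 3′ UTRs of 3349, 1763 and 156 bases. *Rbms3*, an RNA-binding protein, was 11.8% shorter and lower in expression (-0.81 ± 0.09). *Rnmt*, the mRNA cap methyltransferase, was 11.3% shorter, and *Snrpc*, of the U1 snRNP, 10.7%. *Smg1*, the kinase that phosphorylates UPF1 in nonsense-mediated decay, was 6.27% longer, at 9224 to 9618 bases against 8615 to 9196 bases. *Eif4g2*, a translation initiation factor, was 5.58% longer.

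The mitochondrial group held 7 genes, 5 shorter and 2 longer, and expression passed the threshold in 0 of them by edgeR. *Minos1* (chr4:139101814-139131113), of the MICOS complex that shapes the cristae, has 1 coding transcript, Minos1-203, of 2549 bases, and 3 noncoding ones of at most 476 bases. Implied lengths were 815, 913, 806, 820 and 758 bases in affected mice and 920, 972 and 1032 bases at the lowest, the median and the highest of the unaffected mice, 15.5% shorter. By the mean lengths, the coding transcript was 16.7% to 20.6% of molecules in affected mice and 24.0% to 27.5% in unaffected mice. *Ptpmt1*, a phosphatase of cardiolipin synthesis whose 5 transcripts are annotated as noncoding here, was 15.1% shorter, *Timm10b*, of protein import, 10.2%, *Slc25a28*, an iron transporter, 7.89%, and *Usmg5*, a small subunit of ATP synthase, 5.30%. *Rtn4ip1*, an oxidoreductase of the mitochondrion, was 8.04% longer.

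The enzymes of small molecules were 3 shorter genes and 1 longer gene. *Phgdh* (chr3:98313170-98339990), the first enzyme of serine synthesis, was 8.82% longer. The affected mice had 1779, 1828, 1825, 1777 and 1838 bases, and the unaffected mice 1488, 1685 and 1769 bases at the lowest, the median and the highest. Transcript Phgdh-201, of 1893 bases, holds the full reading frame, and the 3 others, of at most 735 bases, are retained introns or fragments. It made up 92.8% to 94.2% of molecules in affected mice and 80.1% to 84.1% in unaffected mice by the mean lengths. *Phgdh* expression was higher as well, 19.5 to 25.8 CPM against 9.34 to 17.7 CPM (log2 0.90 ± 0.15). *Pts*, of tetrahydrobiopterin synthesis, was 13.3% shorter, *Gsta3*, a glutathione transferase, 6.56%, and *Mocs2*, of molybdenum cofactor synthesis, 5.48%.

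The other 8 genes were 6 shorter and 2 longer. *Gm12992* (chr4:131899478-131920029), a noncoding gene, was the single one of the 74 with exactly 2 annotated transcripts, among 933 such genes that were eligible. With 4493 and 1453 bases, they let the implied length fix the share of the longer one. That share was 70.0%, 65.5%, 57.6%, 63.3% and 65.6% in affected mice, and 51.9%, 53.7% and 55.2% at the lowest, the median and the highest of the unaffected mice. The means were 64.4 ± 4.53% (SD, n = 5) and 53.8 ± 1.19% (SD, n = 7), a difference of 10.6 percentage points, and the gene was lower in expression in affected mice (log2 -0.94 ± 0.13). *Tmem243*, a membrane protein, was 15.5% shorter, at 1799 to 1951 bases against 2109 to 2327 bases. *Yae1d1* was 12.2% shorter, *Prr15l* 7.79%, *Cnnm2*, a magnesium transport mediator, 7.63%, *Lancl1*, a glutathione-binding protein, 5.98%, and *Txndc9*, a thioredoxin-like cochaperone, 5.59%. *5430405H02Rik* was 6.77% longer.

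How far the length tells one transcript from another differed between the genes. The transcripts of each gene were split at the widest gap between their lengths into a short and a long class, and the least and the largest share of the long class that the mean length allows was computed. The ranges of the group means lay apart in 9 of the 74 genes. They were *Igf1*, *Minos1*, *Bloc1s5*, *Fbxo28* and *Gtf3c6*, where the long class was smaller in affected mice, and *Otud7b*, *Ppp1r21*, *Phgdh* and *Gm12992*, where it was larger. In *Otud7b* it was 73.1% to 75.2% in affected and 67.9% to 70.3% in unaffected mice. In *Fbxo28* it was 66.9% to 82.2% and 84.6% to 91.7%. Over all single mice the ranges stayed apart in 1 gene, *Gm12992*. In the other 65 genes the ranges of the group means overlapped. In all of the 74 genes except *Gm12992*, the same length could come from several mixes of transcripts.

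**Figure D3:**
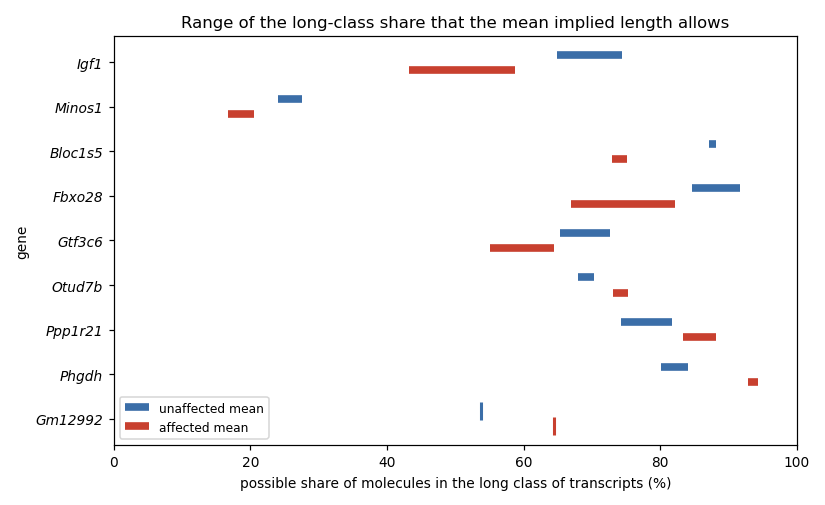
Share of molecules in the long class of transcripts that the mean implied length of each group allows, in percent, for the 9 genes where the ranges of affected and unaffected means lie apart. Bars run from the least to the largest share; for Gm12992, with 2 transcripts, the share is a single value, 64.4% in affected and 53.8% in unaffected mice.

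The least share of molecules that must be of another transcript to move the mean length, whatever the mix, was 1.06% to 17.8% over the 74 genes, with a median of 5.60%, and it reached 10% in 9 genes. The 48 shorter genes had a median size of 10.4% and the 26 longer genes one of 7.32%, beside a median absolute difference of 1.38% over all eligible genes, a number the threshold of 5% fixes in part. Groups lay apart in 147 eligible genes in all, of which 73 differed by less than 5%. Another 840 genes differed by 5% or more with groups that overlapped. Just inside the threshold were *Acap2* (5.04% shorter), *Tmed5* (5.09% longer) and *Rab27b* (5.11% shorter). Just outside it were *Dpysl3* (4.93% longer), *Rcbtb1* (4.84% longer) and *Ppp2r2d* (4.80% shorter). Of the genes set aside by name, *Tg* (a difference of -7.39%), *Rpl22* (-13.2%) and *Rps15a* (-5.44%) met the other criteria.

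**Figure D4:**
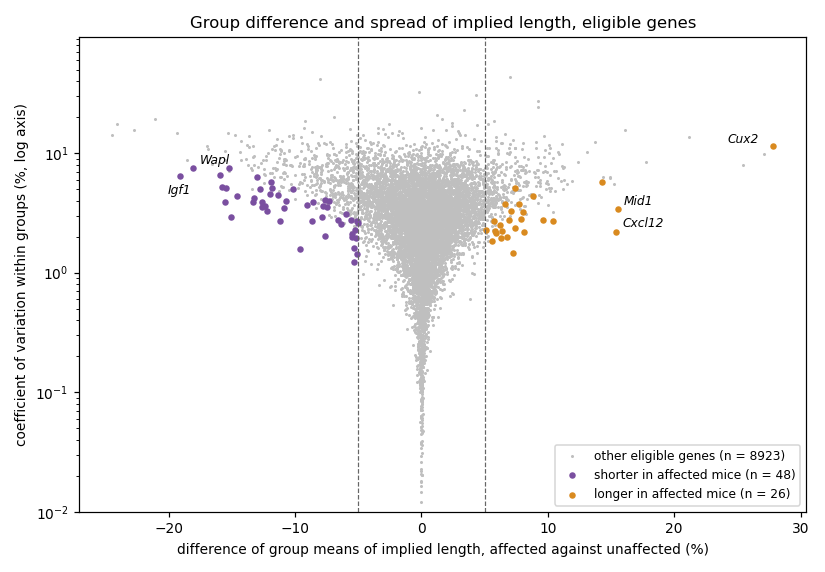
Difference of the group means of implied length (percent, horizontal axis) and the coefficient of variation within groups (percent, log axis) for 8997 eligible genes. The 74 genes lie outside the dashed lines at 5% by the rule, among 840 other genes with differences as large whose groups overlap.

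The annotation of the genes is set beside that of the other 8923 eligible genes, without a test. Transcript number, as more than 1, and the implied length itself entered the rule. The 74 genes had a median of 6.5 annotated transcripts against 6, and a median unaffected length of 2996 against 2957 bases. Their transcripts covered a wider range, with a median of 4431 bases between the shortest and the longest against 3190 bases. The longest transcript was protein coding in 73.0% of the 74 genes and in 77.8% of the others, and a retained intron in 17.6% and 15.5%. Retained introns were the longest transcript in 11 of 48 shorter and in 2 of 26 longer genes. In 35 of the 54 genes with a coding longest transcript, its 3′ UTR was longer than its coding part. This was not counted in the other eligible genes, so it does not set the 74 genes apart. The tables mark genes as confounded, and every gene so marked overlaps another on either strand. The mark was on 63.5% of the 74 genes and 59.2% of the others, among them *Igf1*, *Cux2*, *Mid1*, *Bloc1s5*, *Erp29* and *Gm12992*. Whether counting used the strand is not stated, so the lengths of these genes are uncertain where reads of a neighbor were counted.

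The genes lay on the X chromosome and on all autosomes except chromosome 12. Chromosomes 1 and 5 held 8 each, and chromosome 18 held 6, or 2.37% of its eligible genes against 0.822% overall. On chromosome 15, where *Tg* lies, 2 of 355 eligible genes were among the 74. *Rbx1* lies 14.6 Mb and *Vps13b* 30.7 Mb from *Tg*. *Vps13b* was 8766, 8778, 9491, 8960 and 8958 bases in affected mice and at most 8757 bases in unaffected mice, so its groups were parted by 0.112% of the unaffected mean. *Rbx1* was 1500 to 1584 bases against 1587 to 1759 bases, parted by 0.175%.

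Between mice, the TCK mouse, from the same vendor as the affected mice, lay within the range of the 6 CRW mice in 52 of the 74 genes. It lay beyond that range on the side of the affected mice in 10 and on the far side in 12. On a scale of 0 at the CRW mean and 1 at the affected mean, its median position was -0.0500. The rule counts it as unaffected, which keeps it off the affected side. With the 6 CRW mice alone as unaffected, 104 genes met the rule, and 70 of the 74 were among them. Of the affected mice, mouse 1 was nearest to the unaffected range in 24 genes and mouse 3 in 6, while mouse 4 was furthest from it in 26. Without mouse 1, mouse 4 or mouse 6, 136, 123 and 114 genes met the rule.

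Of the gene lists considered, 2 held a member. *Phgdh* is 1 of 22 eligible genes of amino acid metabolism under ATF4, the transcription factor of the stress response to misfolded protein and lack of amino acids, and *Smg1* is 1 of 17 of nonsense-mediated decay. None of 50 eligible genes of the unfolded protein response was among the 74, none of 68 splicing regulators and none of 19 genes of cleavage and polyadenylation. With 0.822% of all eligible genes meeting the rule, lists of these sizes hold too few genes for such counts to differ from that share, and they are no result about the lists. The median length difference of these 5 lists lay between -0.475% and 0.380%, and that of all eligible genes was 0.0380%. In 2 splicing regulators the groups lay apart below the 5% threshold, *Qk* (6740 ± 86.0 against 6984 ± 65.0 bases) and *Tra2a* (2870 ± 56.8 against 2955 ± 25.8 bases), and both were shorter in affected mice. The same was so for *Nkx2-1*, a transcription factor of thyroid identity, with 2307 ± 5.49 against 2337 ± 13.9 bases. These 3 genes were named after their values were seen. Groups lay apart in 147 of all 8997 eligible genes, and so few genes of a list are no result about it.

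In expression, where 7.63% of all genes tested were higher and 6.10% lower, 47 of 64 genes of the unfolded protein response and 21 of 30 of the amino acid list passed the edgeR threshold as higher in affected mice, and 0 as lower. Of 72 splicing regulators 1 was higher and 10 lower, and of 22 genes of cleavage and polyadenylation 0 were higher and 2 lower, *Nudt21*, a subunit of cleavage factor I (log2 -0.26 ± 0.07), and *Cstf2t*, a subunit of the cleavage stimulation factor (-0.18 ± 0.05). In nonsense-mediated decay 1 of 18 was higher, the noncoding RNA gene *Snhg12* (0.37 ± 0.07), and 1 lower, *Upf3b* (-0.30 ± 0.09). The counts in cleavage and polyadenylation and in nonsense-mediated decay lie near the shares over all genes. The part of these differences in the lengths was not tested.

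Markers of other cells were measured in all mice, and none of the listed genes was at 0 in all of them. The 8 macrophage markers summed to 243 to 403 CPM in affected mice and 94.9 to 234 CPM in unaffected mice, without overlap, and 4 were higher, *Lyz2* most (log2 1.73 ± 0.23). Of 6 fibroblast markers 2 were higher, and of 5 endothelial markers 1, *Kdr*, was lower (-0.60 ± 0.18), with sums that overlapped. The median log2 fold change of the 5 endothelial markers was 0.17. Over all genes tested, 7.63% were higher and 6.10% lower. Of 7 tested markers of parathyroid and C cells 1 was lower. Skeletal muscle markers ranged from 134 to 115538 CPM in affected and from 38.0 to 46554 CPM in unaffected mice, and cartilage and airway markers from 2.53 to 35159 CPM over all mice. For T and B cells, adipose tissue and erythrocytes, 0 markers passed the threshold and the sums overlapped. Of 22 tested genes of thyroid function 2 were higher and 3 lower, among them *Pax8* (-0.81 ± 0.19). The part of these cells in the transcript lengths was not tested.

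Expression of the 74 genes was spread around 0, with a median log2 fold change of -0.02 beside 0.01 for all genes tested. Of the 26 longer genes 4 were higher and 4 lower, and of the 48 shorter genes 3 were higher and 7 lower. In 49 genes the change was under 0.25 on the log2 scale in either direction, and in 1, *Cux2*, it reached 1. The 7 with higher expression were *Arhgef4*, *Phgdh*, *Tmed5*, *Erp29*, *Arpc1b*, *Arpc5l* and *Sdf4*. The 11 with lower expression were *Cux2*, *Gm12992*, *Prdm11*, *Rbms3*, *Cxcl12*, *Gprasp1*, *Tnfaip8*, *Cux1*, *Pts* (-0.32 ± 0.09), *Gtf3c1* (-0.29 ± 0.08) and *Cul7*. *Gtf3c1* missed the threshold without affected mouse 1, 5 or 6 or unaffected mouse 22, 24, 25 or 26, with log2 values of -0.30 to -0.23, and without the filter on low counts (-0.29). *Pts* missed it without affected mouse 1, 3 or 5 or unaffected mouse 14 (the TCK mouse), 24, 25 or 26, with values of -0.32 to -0.26. In limma fits on FPKM values *Arhgef4* (0.58 and 0.69) and *Pts* (-0.13 and -0.13) also missed it.

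**Figure D5:**
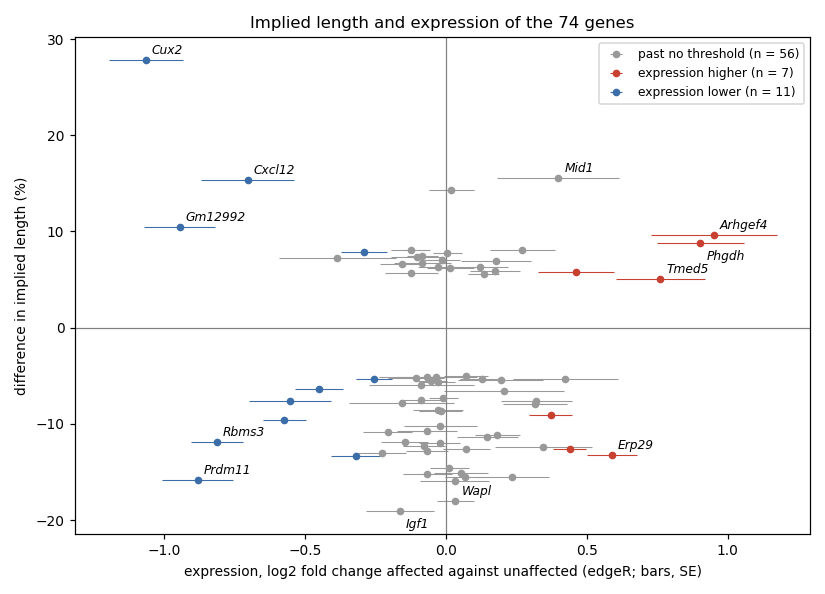
Log2 fold change in expression (edgeR, horizontal axis, with SE) and percent difference in implied length (vertical axis) for the 74 genes, in affected against unaffected mice. The 7 genes higher and 11 genes lower in expression lie among both the longer and the shorter genes.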

How the data were processed

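Total RNA of 12 thyroids was depleted of ribosomal RNA, made into libraries with the KAPA RNA HyperPrep kit, and sequenced on a NextSeq 500. The authors aligned reads with OSA4 and quantified genes in Array Studio on GRCm38 with Ensembl's annotation (R96). They deposited estimated counts per gene, not normalized, and FPKM values. The members of this gene set, the gene lists and the rules were chosen with earlier results of these data known.

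The implied length was computed from counts, FPKM and the total count per mouse, and transcripts were taken from GENCODE M21. Genes named in full were the 12 largest differences in each direction, members with 2 transcripts, members in a gene list or on chromosome 15, and the 3 genes on each side of the 5% threshold. The other members are given by their difference, except 1 longer gene that enters the counts but is not reported here by name.

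Expression was compared with edgeR 4.0.16 (R 4.3.3): rounded counts, filterByExpr, TMM factors, the quasi-likelihood test with robust estimation, and Benjamini-Hochberg adjustment over all genes. The SE of a log2 fold change was taken as its size over the root of its F statistic. CPM is on the TMM scale. Alternatives used DESeq2 1.42.0, limma 3.58.1 on log2(FPKM + 1) and log2(FPKM + 0.1), no TMM factors, no filter, other thresholds of the rule, and fewer mice. The measure and the tests were run on simulated data first. Total counts of 11434901 to 23319948 set the precision. The p-values weigh the group difference against the spread between these mice, which edgeR estimates with information shared across genes.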

Additional observations from a re-analysis of the deposited data

Results flagged for a closer look

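Dixon's ratio was computed in 116 groups of values (implied length and expression of the 29 genes named by rule, in each group of mice), of which chance alone would mark about 5.8. It marked 5 values, 2 of length and 3 of expression. In affected mouse 4, *Vps13b* had an implied length of 9491 bases, above the other affected mice (8766 to 8960 bases), and *Acer3* one of 4823 bases, above the others (4544 to 4622 bases). *Acap2* was at 78.4 CPM in affected mouse 1 against 58.0 to 63.3 CPM in the others. *Zfp276* was at 15.8 CPM in unaffected mouse 25 against 18.8 to 21.1 CPM, and *Rab27b* at 62.3 CPM in unaffected mouse 24 against 41.4 to 49.95 CPM.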

How the results depend on the processing

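The number of genes that met the rule was 80 with a minimum count of 50, 59 with 200, 110 with a difference of at least 3%, 30 with at least 10%, 65 with group medians, and 27 among genes not marked as confounded. It was 74 with libraries rescaled on genes with 1 transcript. Leaving out each mouse gave 82 to 136 genes, since fewer mice make the rule easier to meet, and it gave a difference of 9.19 to 12.3 percentage points in the long share of *Gm12992*. The percent length differences of the 29 named genes stayed within 1 SD of the reported value in all 435 repeats. Most repeats left out 1 mouse, which cannot move a group mean by 1 SD whatever the values. This count is therefore no evidence that the differences are stable. In some of the repeats, 3 genes near the threshold fell under 5%. Without 1 mouse, *Acap2* came to between -5.44% and -4.03% (lowest in size without the TCK mouse), *Tmed5* to between 3.99% (without affected mouse 1) and 5.61%, and *Rab27b* to between -5.53% and -4.69% (without unaffected mouse 26). *Acap2* and *Rab27b* were also under 5% with group medians, and *Acap2* and *Tmed5* with the CRW mice alone. Between 14 and 19 of the 74 genes passed the expression threshold without 1 mouse, and 15 to 20 under the other alternatives.

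Expression values that changed sign did not pass the threshold in the reported comparison or under the alternative. Without TMM factors they were *Vps13b* (-0.0065) and *Ube2d3* (-0.0023). With limma on log2(FPKM + 1) and log2(FPKM + 0.1) they were *Zfp276* (-0.16 and -0.19), *Vps13b* (-0.11 and -0.11), *Igf1* (0.12 and 0.13), *Acer3* (0.13 and 0.15) and *Rbx1* (0.014 and 0.015). With the CRW mice alone it was *Smg1* (0.0047). Without 1 mouse the ranges that crossed 0 were *Zfp276* (-0.016 to 0.073), *Vps13b* (-0.0077 to 0.022), *Lsm6* (-0.025 to 0.093), *Acer3* (-0.10 to 0.0038), *Ube2d3* (-0.013 to 0.052), *Smg1* (-0.061 to 0.011), *Acap2* (-0.015 to 0.11) and *Rab27b* (-0.26 to 0.024). FPKM divides by the transcript length, so its fold changes include the length difference by construction. No paired analysis was possible because the groups share no replicate numbers. A length rests on few reads in genes near 100 counts, and the number of molecules per transcript is the software's estimate.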
